A study of Bos taurus with 2 samples.

Results

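Aminoacyl-tRNA synthetases are the enzymes that join each amino acid to its own transfer RNA, the step that sets which amino acid a codon stands for. Animal cells keep separate sets for protein synthesis in the cytosol and in mitochondria, both encoded in the nucleus, and most amino acids have 1 gene for each. A few genes depart from this: KARS (lysine) and GARS (glycine) give both enzymes, EPRS joins glutamate and proline in 1 protein, and FARSA and FARSB are the subunits of the cytosolic phenylalanine enzyme. In blood these enzymes are made by all cells that synthesise protein, and WARS, the cytosolic tryptophan enzyme, is also known as a gene induced by interferon gamma.

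The 37 genes described here are 20 cytosolic enzymes, 16 mitochondrial enzymes whose symbols end in 2, and AARSD1, an alanine tRNA editing protein related to the alanine enzyme. Their probes were taken by name, from the gene name or the RefSeq accession that the array gives each probe, and not by any measured value. The list of genes was itself chosen with earlier results of these data known. Symbols follow the array, where current names of most cytosolic enzymes carry a final 1. The array held 93 probes for 36 of the 37 genes, out of 43653 distinct probes. No probe named EARS2, the mitochondrial glutamate enzyme.

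Whole blood RNA of Holstein cattle (Bos taurus) was read on 2 arrays, 1 for a specimen labelled low feed efficiency and 1 for a specimen labelled high feed efficiency. An animal of low feed efficiency has a high residual feed intake, the part of its intake that size and production do not account for. The labels give no age, sex, diet or treatment, and do not say how many animals a specimen came from. The comparison asks which blood genes differ with feed efficiency. Each array was divided by the 75th percentile of its probes, 98 for low-efficiency blood and 81 for high-efficiency blood. A difference is the log2 value of low-efficiency blood minus that of high-efficiency blood after this scaling, so equal raw intensities give a negative difference. Having 1 array per group, the design allows neither a replicate check nor a test, and the number of arrays limits the precision. Repeat spots of the same probe gave an SD of the log2 difference of 0.10 among 12 bright probes and 0.23 among 24 dim probes, which is error within an array and holds no variation between animals or preparations.

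Both arrays carried the markers of whole blood. Of the listed markers of red cells, neutrophils, monocytes, T cells, B cells, natural killer cells and platelets, all were above background except SLC4A1, which was below it, and GP9, which had no probe. Of 5 genes not typical of blood, ALB, KRT5 and UMOD were below background while APOA1 and MYH7 were read at 111 and 77 in low-efficiency blood and 105 and 72 in high-efficiency blood. By definition the median of all genes had 5169 of 10338 genes on each side. Above it lay 5 of 7 neutrophil markers, and below it 5 of 7 T cell and 5 of 6 natural killer cell markers. Lists this small do not set such counts apart from an even split. Of 6 measured red cell markers 4 lay above it and 2 below. They ran from ALAS2 at -1.42 (112 in low-efficiency blood, 248 in high-efficiency blood) to CA2 at 0.33. Summed intensities before scaling were 78065 in low-efficiency blood and 56955 in high-efficiency blood for neutrophil markers. For natural killer cell markers they were 11947 and 12492. These sums hold the greater brightness of the low-efficiency array (75th percentiles of 98 and 81). S100A12 alone gave 48851 and 34561 of the neutrophil sums. In whole blood, fewer cells of a type and less RNA per cell cannot be told apart, and the part of cell make-up in the differences below was not tested.

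Of the 37 genes 35 were above background on both arrays, and no synthetase was above background on 1 array only. Passing this cut does not by itself show expression, since APOA1, not typical of blood, read 111 in low-efficiency blood. Dimmer than that in the same blood were CARS (19), LARS (63), MARS2 (41), NARS2 (51), VARS2 (63), LARS2 (65), FARS2 (78) and AARSD1 (85). PARS2, the mitochondrial proline enzyme, had 1 probe at 3 in low-efficiency blood and 3 in high-efficiency blood, below background on both. Of the 93 probes 71 were above background on both arrays, 5 in low feed efficiency only, 3 in high feed efficiency only and 14 on neither. In the plot of raw intensities the probes follow the ratio of the arrays' 75th percentiles over the whole range of signal, with the widest departures among dim probes.

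**Figure D1:**
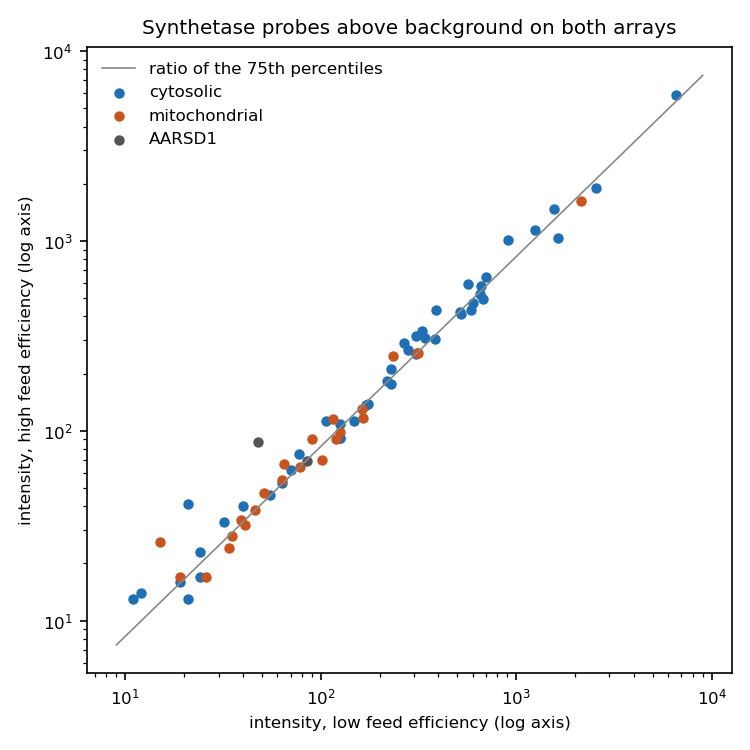
Background-subtracted intensity of the 71 synthetase probes above background on both arrays, in low feed efficiency (x axis) against high feed efficiency (y axis), both on log axes. Points on the grey line have a difference of 0 after scaling, points above it are lower in low feed efficiency, and the 3 points farthest above it are the FARSA, YARS2 and AARSD1 probes named in the text.

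The synthetases as a set were close to level between the arrays. None of the 35 measured genes was 1.5-fold higher or lower in low feed efficiency by its brightest probe, where 2.68% of all 10338 measured genes were higher by that much and 3.13% lower. None was 2-fold apart, against 0.929% of all genes (0.368% at least 2-fold higher, 0.561% lower). The median difference was 0.01 over the synthetases and -0.04 over all genes. The interquartile range of the synthetases ran from -0.15 to 0.08, and that of all genes from -0.22 to 0.15. With backgrounds of 2.68% and 3.13%, a count of 0 among 35 genes does not set the synthetases apart.

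At a lower threshold of 1.2-fold, chosen after the data were seen, 1 synthetase was higher and 6 were lower, where 14.5% of all genes were higher and 20.6% lower. TARS was the higher one. The lower ones were the cytosolic enzymes WARS, VARS and FARSA and the mitochondrial enzymes SARS2, LARS2 and AARS2. With normexp background correction, 3 were higher (TARS, GARS and KARS) and 1 was lower (YARS). None of the 6 named as lower then passed 1.2-fold, the lowest of them being WARS at -0.24. Both the counts and the genes at this threshold therefore depend on the background correction. With 7 spike-in controls as the scale, the median of all genes was 0.34 and the split became 24 higher and 0 lower, so the signs given here are relative to the bulk of genes on each array.

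**Figure D2:**
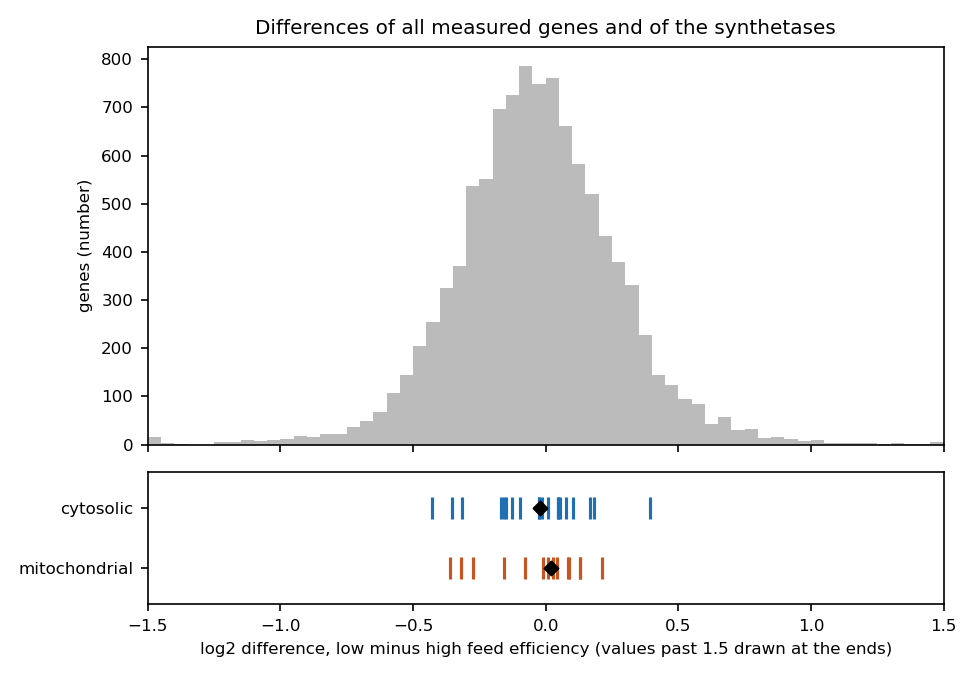
Upper panel, number of measured genes by log2 difference between low- and high-efficiency blood (low minus high), with values beyond 1.5 drawn at the ends; lower panel, 1 line for each of the 20 cytosolic and 14 mitochondrial enzymes, with the group median as a diamond. All enzymes lie between -0.43 and 0.39, inside the body of the distribution of all genes.

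Cytosolic and mitochondrial enzymes had medians close to each other. Relative to the median of all genes, the median was 0.02 for the 20 cytosolic enzymes and 0.06 for the 14 measured mitochondrial enzymes, which puts the cytosolic median 0.04 below the mitochondrial one. The cytosolic enzymes ran from -0.43 (WARS) to 0.39 (TARS), with an SD of 0.19 across genes, and the mitochondrial enzymes from -0.36 (SARS2) to 0.21 (RARS2), with an SD of 0.18. Above the median of all genes lay 12 of 20 cytosolic and 9 of 14 mitochondrial enzymes. The 2 groups overlapped over most of their range.

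WARS, the tryptophan enzyme of the cytosol, was the lowest synthetase by the brightest probes. Its 5 probes read 911, 389, 268, 106 and 32 in low feed efficiency and 1014, 433, 291, 112 and 33 in high feed efficiency. Each of them was dimmer in low feed efficiency even before scaling, although that array was the brighter one as a whole. The scaled differences ran from -0.43 to -0.32, a spread of 0.11, and the brightest probe gave 0.743-fold. Normexp background correction gave -0.24 in place of -0.43, spike-in scaling gave -0.05, and relative to the median of all genes the value stayed negative under all 17 alternatives, from -0.40 to -0.22. WARS was the lowest synthetase under 12 of the 17 alternatives; YARS lay below it with the pixel mean and with normexp, AARSD1 with only spots flagged good, and FARSA, AARSD1 and YARS2 with the mean or the median over probes. Of 216 genes with at least 5 probes above background, 18.5% (40 genes) had every probe below 0. With the cut set at the highest WARS probe, 0.926% (2 genes) had every probe as low. These were WARS, which passes by construction, and the class II invariant chain gene CD74. That cut was chosen after the values were seen, and probes of the same gene are not replicates.

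TARS, the cytosolic threonine enzyme, was the highest synthetase, also under all 17 alternatives. Its single probe read 1636 in low-efficiency blood and 1030 in high-efficiency blood, a difference of 0.39 or 1.31-fold, at the percentile of 93.0 among all measured genes. Across the alternatives it lay between 0.38 and 0.77, and between 0.42 and 0.50 relative to the median of all genes. No other probe was there to check it.

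VARS, the cytosolic valine enzyme, followed WARS at the low end of the cytosolic enzymes, with 565 and 77 in low-efficiency blood and 596 and 75 in high-efficiency blood for its probes, or differences of -0.35 and -0.24. FARSA, the catalytic subunit of the phenylalanine enzyme, had -0.32 at its brightest probe (307 in low-efficiency blood and 316 in high-efficiency blood) and -1.24 at a dim one (21 and 41), while the partner subunit FARSB had 0.08 (600 and 470). As the mean over probes FARSA had -0.78, and was then the only synthetase beyond 1.5-fold. GARS and KARS, the genes that serve both compartments, had 0.18 and 0.17 at their brightest probes and -0.13 and -0.05 at their other probes.

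The remaining cytosolic enzymes lay between -0.17 and 0.10. SARS, the serine enzyme, read 6535 in low-efficiency blood and 5899 in high-efficiency blood at its brightest probe, a difference of -0.13, and its other probes gave 0.15 and -0.18, so its direction could not be told. NARS, the asparagine enzyme, had 5 probes between -0.29 and 0.06. The lowest of this group were DARS (aspartate, -0.17), QARS (glutamine, -0.16) and AARS (alanine, -0.15), and the highest was IARS (isoleucine, 0.10), whose other probe gave 0.11. The values of EPRS, HARS, MARS, RARS, LARS, CARS and YARS were 0.05, 0.05, 0.01, -0.02, -0.03, -0.03 and -0.10. The value of YARS, the tyrosine enzyme, depended on how its brightest spot was read: it was -0.45 with the pixel mean and -0.33 with normexp, and its dimmest probe gave 0.22. Other probes reached -0.52 for DARS, -0.50 for RARS and 0.42 for LARS. CARS, the cysteine enzyme, was read near background at 19 in low-efficiency blood and 16 in high-efficiency blood.

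**Figure D3:**
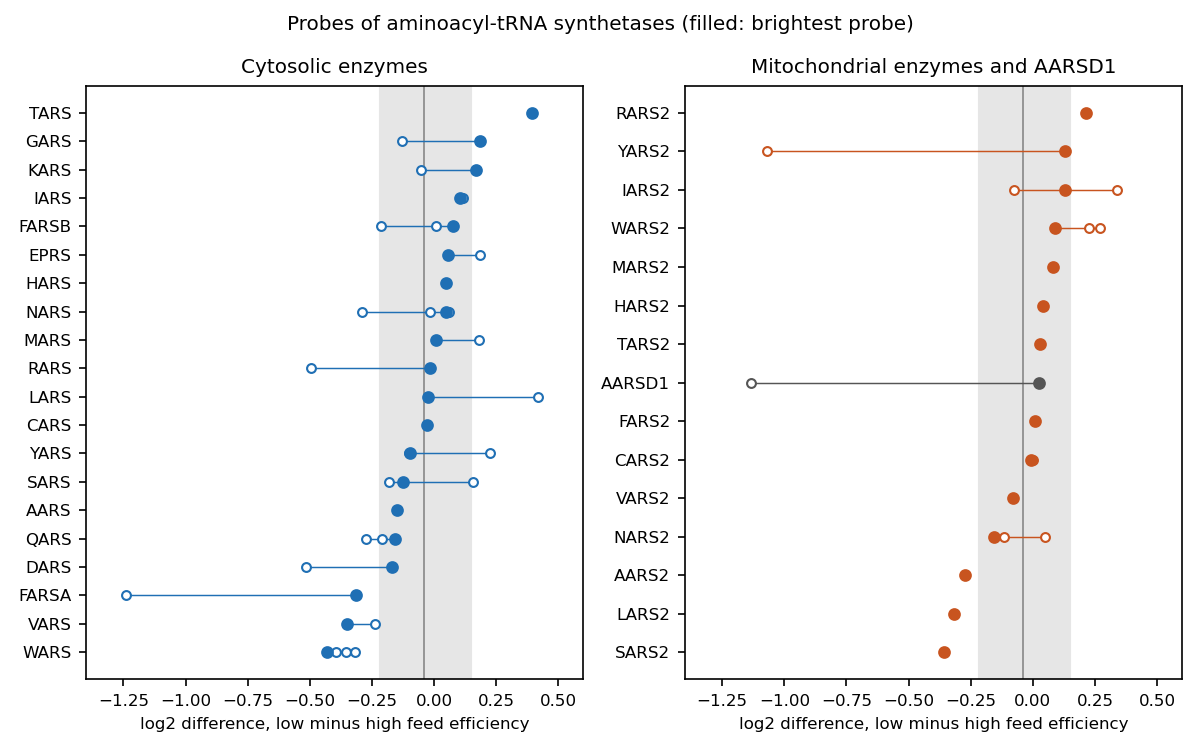
Log2 difference between low- and high-efficiency blood (low minus high) for each probe above background on both arrays, for cytosolic enzymes (left) and mitochondrial enzymes with AARSD1 (right); the filled point is the brightest probe and open points are other probes of the same gene. The grey band is the interquartile range of all genes and the line their median of -0.04. WARS has all 5 probes left of the band, and FARSA, YARS2 and AARSD1 each have a probe beyond -1.

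Among mitochondrial enzymes the lowest was SARS2, the serine enzyme, with 233 in low-efficiency blood and 247 in high-efficiency blood, a difference of -0.36 from its single probe. LARS2, the leucine enzyme, had -0.32 (65 and 67), and AARS2, the alanine enzyme, had -0.27 at both of its probes above background (115 and 90 in low-efficiency blood, 115 and 90 in high-efficiency blood). The highest was RARS2, the arginine enzyme, with 164 in low-efficiency blood and 117 in high-efficiency blood, a difference of 0.21. WARS2, the mitochondrial tryptophan enzyme, had 126, 102 and 34 in low-efficiency blood and 98, 70 and 24 in high-efficiency blood, or differences of 0.09, 0.27 and 0.23. IARS2 and MARS2 had 0.13 and 0.08, the first with probes between -0.08 and 0.34. MARS2 changed sign with normexp (-0.11) and with the pixel mean (-0.09).

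YARS2, the mitochondrial tyrosine enzyme, had probes that pointed apart. The bright one read 2135 in low-efficiency blood and 1613 in high-efficiency blood (0.13) and the dim one 15 and 26 (-1.07). AARSD1 also had probes that pointed apart, but of similar brightness. The probe for transcript variant 1 read 85 in low-efficiency blood, where it was unflagged, and 69 in high-efficiency blood (0.03). The probe labelled transcript variant 2 read 48 and 87 (-1.13) and was flagged good on both arrays. It was taken as AARSD1 by the array's gene name, while its RefSeq entry belongs to another gene in the gene table used here. Whether it reads AARSD1 was not tested. The last 6 mitochondrial enzymes, HARS2, TARS2, FARS2, CARS2, VARS2 and NARS2, lay between -0.16 and 0.04.

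Probes of one synthetase often pointed apart. Of 23 synthetases with more than 1 probe above background, 7 had every probe below 0, 4 had every probe above 0 and 12 had probes on both sides, while over all 4996 genes with several probes 32.7% were wholly below, 25.4% wholly above and 41.9% on both sides. The pooled SD between probes of one synthetase was 0.27, and 0.25 over all genes. The SD between the 35 synthetases, each taken by its brightest probe, was 0.18. The SD of 0.27 also holds dim probes, so these values are not for probes of like brightness.

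Setting the enzymes for the same amino acid side by side gave 14 pairs, with FARSA standing for the cytosolic phenylalanine enzyme. The cytosolic difference was above the mitochondrial one in 6 pairs and below it in 8, with a median gap of -0.02. The widest gaps were those of tryptophan (WARS -0.43, WARS2 0.09), threonine (TARS 0.39, TARS2 0.03) and phenylalanine (FARSA -0.32, FARS2 0.01). With FARSB (0.08), the brighter subunit, in place of FARSA the phenylalanine gap was 0.07, and the split became 7 pairs above and 7 below. In 4 pairs, cysteine, histidine, isoleucine and methionine, the partners were less than 0.10 apart, the last with the MARS2 value that changed sign. HARS and HARS2, which are neighbours in the bovine genome with no other coding gene between them, had 0.05 (170 in low-efficiency blood, 136 in high-efficiency blood) and 0.04 (162 and 130). EPRS and IARS2, with 1 coding gene between them, had 0.05 and 0.13.

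**Figure D4:**
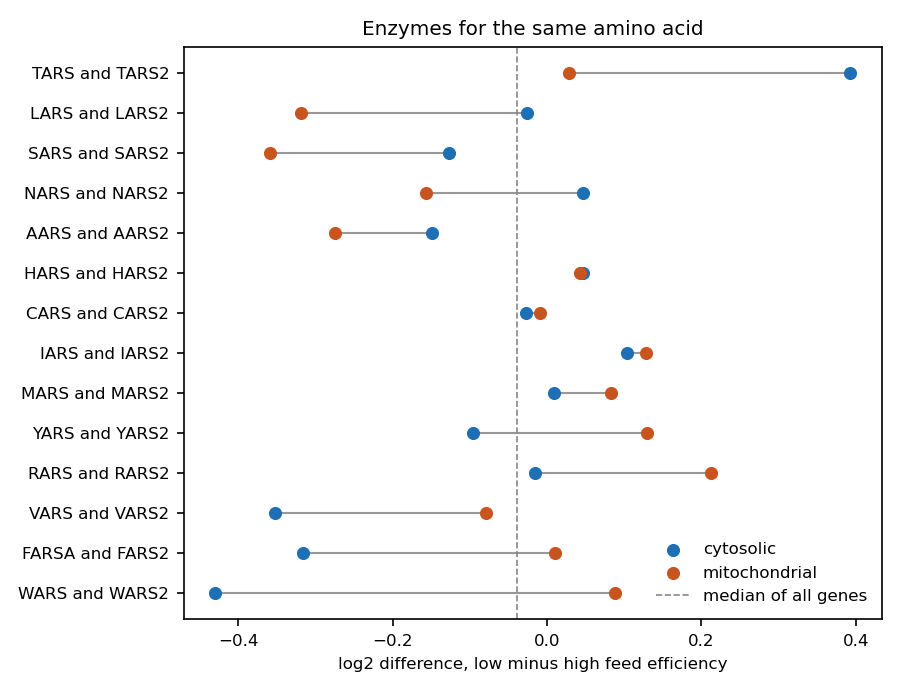
Log2 difference between low- and high-efficiency blood (low minus high) for the cytosolic and the mitochondrial enzyme of 14 amino acids, sorted by the gap between them. The dashed line is the median of all genes, and the tryptophan pair at the bottom and the threonine pair at the top have the widest gaps.

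The enzymes were also grouped by complex and by catalytic fold. In animal cells 8 cytosolic synthetases are bound with scaffold proteins in the multisynthetase complex. These 8 ran from -0.17 to 0.17 with a median 0.04 above that of all genes, while the 12 outside the complex had a median of -0.02 on the same footing and ran from -0.43 to 0.39. The scaffold genes AIMP1, AIMP2 and EEF1E1 had 0.22 (585 in low-efficiency blood, 415 in high-efficiency blood), -0.03 (598 and 504) and 0.09 (63 and 49), and the other AIMP1 probe gave -0.0013. AIMP2 had probes down to -0.34, with a median over its 3 probes of -0.27. By catalytic fold, the median relative to all genes was 0.02 for 17 measured enzymes of class I and 0.06 for 16 of class II.

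The genes that work next to the synthetases differed from list to list. The cytosolic elongation factors had a median difference, relative to all genes, of -0.17 over 5 measured members of 6. They ran from EEF1G at -0.37 (4 probes, -0.47 to -0.29) to EEF1B2 at 0.12 (3 probes, -0.81 to 0.12). None was 1.5-fold apart, where 2.68% of all genes were higher and 3.13% lower by that much. These are bright genes, and loess normalization, which removes a trend with brightness, gave -0.25 for EEF1G and 0.25 for EEF1B2. The mitochondrial initiation and elongation factors had a median of -0.03 on the same footing over 5 of 6, from TUFM at -0.21 to GFM2 at 0.19. Genes that formylate or amidate charged mitochondrial transfer RNA had 0.28 over 4 of 4, from GATC at -0.16 to MTFMT, the formylase of the initiator, at 0.39, and their median difference before subtraction, 0.24, lay above the upper quartile of all genes (0.15). MTFMT was read near background, at 27 in low-efficiency blood and 17 in high-efficiency blood, and had -0.04 with normexp. GATB, at 0.35, was also near background, with 20 in low-efficiency blood and 13 in high-efficiency blood. The median of this list therefore leans on genes read near background. Proofreading enzymes and peptidyl-tRNA hydrolases had 0.06 over 4 of 6, from PTRHD1 at -0.12 to DTD1 at 0.17, although a DTD1 probe gave -1.60.

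Uncharged transfer RNA activates the kinase GCN2, encoded by EIF2AK4, and through the factor ATF4 raises synthetase and amino acid synthesis genes. Of 19 genes of this amino acid starvation response 18 were measured, with a median at 0.01 once that of all genes was subtracted. None was 1.5-fold higher and 1 was 1.5-fold lower, where the shares of all genes were 2.68% and 3.13%. The lower one was CEBPB, a leukocyte and stress transcription factor, with 1134 in low-efficiency blood and 1527 in high-efficiency blood, a difference of -0.70 and other probes up to -0.08. The highest was MTHFD2, a mitochondrial folate enzyme, with 0.57 (36 and 20), which was 0.07 with normexp. Asparagine synthetase (ASNS), a widely used reporter of this response, had -0.20 (56 and 53), and ATF4 had 0.22 (7077 and 5020) with 3 probes between -0.12 and 0.22; both were chosen after their values were seen.

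WARS was set beside other genes known to respond to interferon gamma. Of 10 listed genes 9 were measured, with a median at -0.01 after the same subtraction, 4 above that of all genes and 5 below, and none was 1.5-fold apart (2.68% of all genes higher, 3.13% lower). The lowest was the immunoproteasome subunit PSMB9, with 6704 in low-efficiency blood and 6955 in high-efficiency blood (-0.33, 3 probes between -0.42 and -0.31). With loess normalization PSMB9 had -0.21. The highest was IDO1, which degrades tryptophan, with 464 in low-efficiency blood and 321 in high-efficiency blood (0.26). WARS, at -0.43, was below all 9 by the brightest probes.

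**Figure D5:**
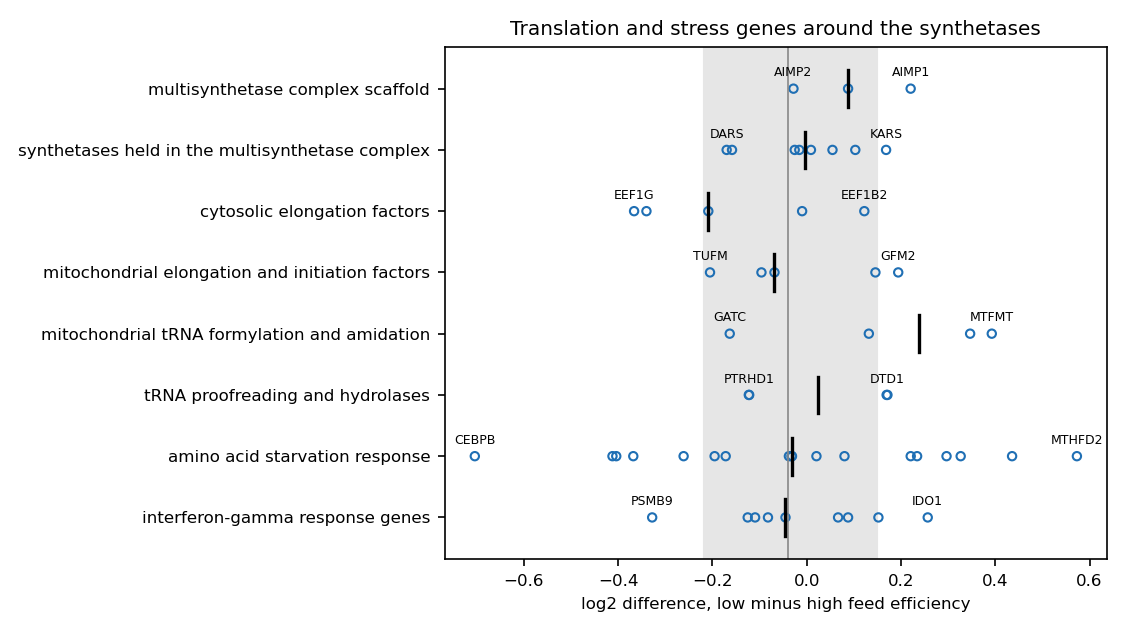
Log2 difference between low- and high-efficiency blood (low minus high) for each measured gene (open circles) of 8 lists, with the list median as a black bar and the outermost genes named. The grey band is the interquartile range of all genes and the line their median; every list holds genes on both sides of 0.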

How the data were processed

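Per the file headers, the deposited scanner files come from GenePix Pro 6.1.0.4 and 1 scan of 1 slide that held both arrays, so neither differs between the groups, and Agilent Feature Extraction is named in the submitters' processing notes. The deposited intensity is the pixel median of a spot at 532 nm minus a background of 25 taken from negative controls, per the file headers. Each deposited spot also has the percent of its pixels that were saturated, and a flag score of 100 for good, 0 for unflagged and -50 for not found. The authors also deposited a table of log2 values whose columns both have a median of 4.34, and its scaling is not given here. Its values ranked like the scanner intensities only after a move by 1 row (Spearman's rho 1.00, against 0.077 and 0.072 for low and high feed efficiency as deposited), and it was used only as an alternative, after that move.

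Control spots were left out, as were bright spots flagged as not found (408 and 283), leaving 43096 probes. Each array was scaled by its 75th percentile before log2 was taken. A probe was above background when it exceeded the median of 153 negative control spots by 3 robust SDs, 10.9 on both arrays, as 56.5% of probes did for low-efficiency and 52.7% for high-efficiency blood. The brightest probe that passed on both arrays stood for its gene. The planned test was none, since each group has 1 array; percentages of all 10338 genes stand beside counts of genes past a fold. Probes were named through the RefSeq accession and the RefSeq gene table of ARS-UCD2.0, which served for names and gene order alone. Of the 93 synthetase probes 81 were named by accession and 12 by the array's gene name. The members and lists were chosen with earlier results of these data known. Genes named in full were those farthest from 0 in each compartment, those with probes on both sides of 0 and at least 0.5 apart, and WARS; every member is given with its difference or a range. The value of 1 gene in the interferon gamma list is not reported here. The calculation was tested on simulated arrays with known changes. Python 3.11.15, pandas 2.3.3, statsmodels 0.14.6 and limma 3.58.1 (normexp, offset 50) were used.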

Additional observations from a re-analysis of the deposited data

How the results depend on the processing

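Cytosolic, mitochondrial and gap medians moved by less than 0.10 under the 17 alternatives: background correction, scaling, quantile and loess normalization, the authors' table, filters on dim probes, flags, saturation, the rule for several probes and the array's own gene names. Being relative to all genes, they cannot move when only an array's scale changes, as with spike-in or median scaling. The cytosolic median ran from 0.004 to 0.069, the mitochondrial median from -8.63e-05 to 0.108, and the gap from -0.046 to 0.035, so the order of the 2 compartments was not fixed. The range of the cytosolic median and of the gap includes leaving out KARS and GARS. The count of 0 members at least 1.5-fold higher became 2 (TARS 0.77, RARS2 0.59) with spike-in scaling, which adds the same amount to every gene. The count of 0 at least 1.5-fold lower became 1 with only spots flagged good (AARSD1 -1.09, where the count 2-fold apart also became 1) and 1 with the mean or the median over probes (FARSA -0.78). That AARSD1 value rests on the probe taken by the array's gene name, whose RefSeq entry belongs to another gene. At 1.2-fold the counts ran from 1 to 24 higher and from 0 to 9 lower. No paired analysis was possible because each group had 1 array. For the same reason no replicate could be left out. Dim probes limit the reading of FARSA, YARS2 and CARS.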
